A study of Homo sapiens with 6 samples.

Results

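CTCF peaks were examined at 10 genes that mark the colon epithelium: CDX1, CDX2, HNF4A, EPCAM, CEACAM5, KRT8, KRT18, KRT20, VIL1 and MUC2. The genes were given by name, and their regions were all places with a CTCF peak inside the gene body or within 10 kb of it on hg19 (the window was also widened to 50 kb). Peaks of the lists that overlapped by at least 1 bp were merged, which gave 23 regions at the 10 genes, of 60235 regions in the whole series. The cells were HCT-116, an established human colon cancer line, grown without treatment. Chromatin immunoprecipitation with a CTCF antibody, followed by sequencing, was done on wild-type cells (WT) and on the clones D3 and E4. The clones are described as carrying a CTCF mutation of unstated position. Whether it lies in the CTCF gene or in a site that CTCF binds is not known here. With 1 CTCF library for each of WT, D3 and E4, differences below have no replicate check and were not tested. Peaks show where CTCF was found and do not report expression, so whether these genes are active in the cells could not be checked here.

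CTCF is a zinc-finger protein that binds a long, GC-rich DNA motif and, together with the cohesin ring, anchors chromatin loops and insulates neighbouring genes. In the intestine CDX1, CDX2 and HNF4A are transcription factors that set and hold the epithelial programme. EPCAM and CEACAM5 are cell-surface adhesion proteins, KRT8, KRT18 and KRT20 are keratins of simple epithelia, VIL1 builds the microvilli of the brush border, and MUC2 is the gel-forming mucin of goblet cells.

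Of the 23 regions at these genes, 13 were called in all 3 lists (56.5%, exact 95% interval 34.5 to 76.8), close to the 53.9% of all regions. Another 6 were called in D3 only (26.1%, against 26.1% of all regions). A further 3 were shared by D3 and E4 without a WT peak (13.0%, interval 2.78 to 33.6, against 9.31% of all regions), and 1 was called in WT only (against 2.37% of all regions). Of the 15 WT peaks in the windows, D3 peaks overlapped 14 and E4 peaks overlapped 14, beside 95.9% and 85.7% of all WT peaks. The single WT peak that both clones lacked lay in HNF4A. These shares lie near those of the whole series, within wide intervals that cover counting error only.

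**Figure D1:**
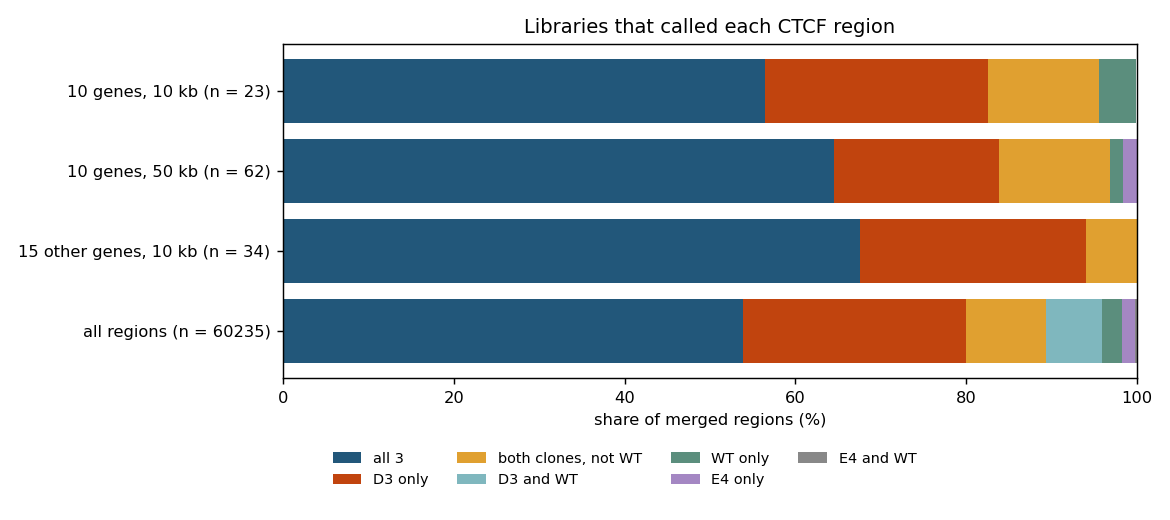
Share of merged CTCF regions (x axis, %) by the libraries that called them, for the 10 genes with 10 kb (23 regions) and 50 kb (62 regions), 15 other colon epithelial genes with 10 kb (34 regions) and all 60235 regions. Regions called in all 3 libraries made up 56.5%, 64.5%, 67.6% and 53.9%.

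The lists themselves differed. D3 held 57935 peaks, E4 39434 and WT 38645, with median widths of 873, 750 and 639 bp, and their depth is unknown because the tables give no read counts. A gene can therefore gain weak peaks in D3 from the length of its list alone. For each region the rank is given as a percentile, the share of peaks in the same list with an equal or lower −log10 q (the peak caller's adjusted significance), so that 100 is the strongest peak. Percentiles from lists of different length do not show a change. For some regions the rank among the 32495 regions called in all 3 lists is added, which can order the libraries differently.

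Among the transcription factors, CDX1 had one of the strongest regions of the set. This region, chr5:149540105-149542382, ended 3.96 kb upstream of the start site. Its percentiles were 98.8 in WT, 99.2 in D3 and 98.8 in E4, and its folds over the peak caller's background (the authors' values) were 12.6, 22.1 and 18.3 in the same order. All 3 libraries thus placed it near the top of their lists. A second region within the gene, chr5:149554794-149555918, was also called in all 3, at percentiles of 78.0 in WT, 78.6 in D3 and 61.0 in E4. D3 alone had a peak 0.576 kb downstream of the CDX1 start, chr5:149546920-149547891, at its 14.0th percentile. D3 alone also had a peak at the edge of the window, 9.98 kb upstream, at its 8.56th percentile.

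CDX2, the master regulator of intestinal identity, had 2 regions, and all 3 libraries called both. The stronger one, chr13:28526878-28528964, lay 7.24 kb beyond the 3′ end of the gene, on the side of PDX1. Its percentiles were 99.2 in WT, 97.9 in D3 and 98.5 in E4, with folds of 14.4, 16.7 and 19.6. The other one, chr13:28542165-28543409, lay within the gene near its start. It was much weaker in every list, at percentiles of 8.46 in WT, 31.6 in D3 and 34.9 in E4. Among regions called in all 3 lists it ranked at 3.86 in WT, 4.87 in D3 and 24.0 in E4. Its WT peak had a fold of 3.45, which was among the lowest of the member peaks in that list.

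The promoter of CDX2 is shown because a CTCF peak of each library ended close to it. Inside the gene these peaks stopped 0.217 kb from the hg19 start used here in WT, 0.096 kb in D3 and 0.282 kb in E4. The entry below has its own start on another assembly, where the gene is 8.4 kb long against 7.3 kb used here. Whether a peak reached the last of its 300 bases was not checked. The sequence is the RefSeq entry on GRCh38.p14, chr13:27969266-27969565, minus strand, from 250 bases before to 50 bases after the start, written 5′ to 3′. Capitals mark CCCTC, the letters CTCF is named after, on either strand (GAGGG on the other one).
CDX2: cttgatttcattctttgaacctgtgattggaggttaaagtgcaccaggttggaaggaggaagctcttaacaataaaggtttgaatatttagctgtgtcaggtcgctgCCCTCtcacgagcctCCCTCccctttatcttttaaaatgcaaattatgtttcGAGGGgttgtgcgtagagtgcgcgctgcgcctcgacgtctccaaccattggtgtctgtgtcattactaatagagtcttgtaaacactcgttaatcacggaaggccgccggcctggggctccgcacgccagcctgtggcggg
This entry held 3 such matches, and 71.2% of the 35116 RefSeq promoters held at least 1. A stricter core of the CTCF motif, CCNNNAGNNGGC (N for any base, both strands), was found in 10.6% of these promoters and had no match in the 300 bases of CDX2. A match to these letters is a description and not a binding site.

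HNF4A, a nuclear receptor of liver and gut epithelium with an upstream and a downstream promoter, had 6 regions, the most of the 10 genes. Its body was also the longest used, at 77 kb against 34.2 kb for VIL1, the next longest. Its window was therefore the widest, and region counts were not scaled to length. None of the 6 regions lay within 1 kb of either start. Both regions called in all 3 libraries lay inside the gene between the starts, at chr20:43012277-43013701 and chr20:43014888-43017906, 27.8 and 30.4 kb downstream of the first start. The second was at percentiles of 93.6 in WT, 95.6 in D3 and 88.6 in E4, and among regions called in all 3 it ranked at 92.4, 92.1 and 86.2 in the same order. It held separate peaks in D3 and in WT, while E4 had 1 peak of 2749 bp across the same stretch.

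The first of these HNF4A regions stood at a percentile of 64.0 in WT (fold 5.99), 95.5 in D3 (fold 17.7) and 89.0 in E4 (fold 12.8). Among regions called in all 3 lists it ranked at 58.1 in WT, 91.9 in D3 and 86.7 in E4, so WT was the lowest of the 3 on either scale. The other 4 HNF4A regions were weak and came from single libraries. D3 alone had peaks 9.35 kb upstream of the first start (39.6th percentile), 50.9 kb downstream (7.54th) and near the 3′ end of the gene (25.6th). The WT peak at chr20:43035760-43036036, at the 5.74th percentile of WT, was the one that no clone peak overlapped, yet the D3 peak at chr20:43035331-43035744 ended 15 bp before it. The nearest E4 peak was 17950 bp away.

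**Figure D2:**
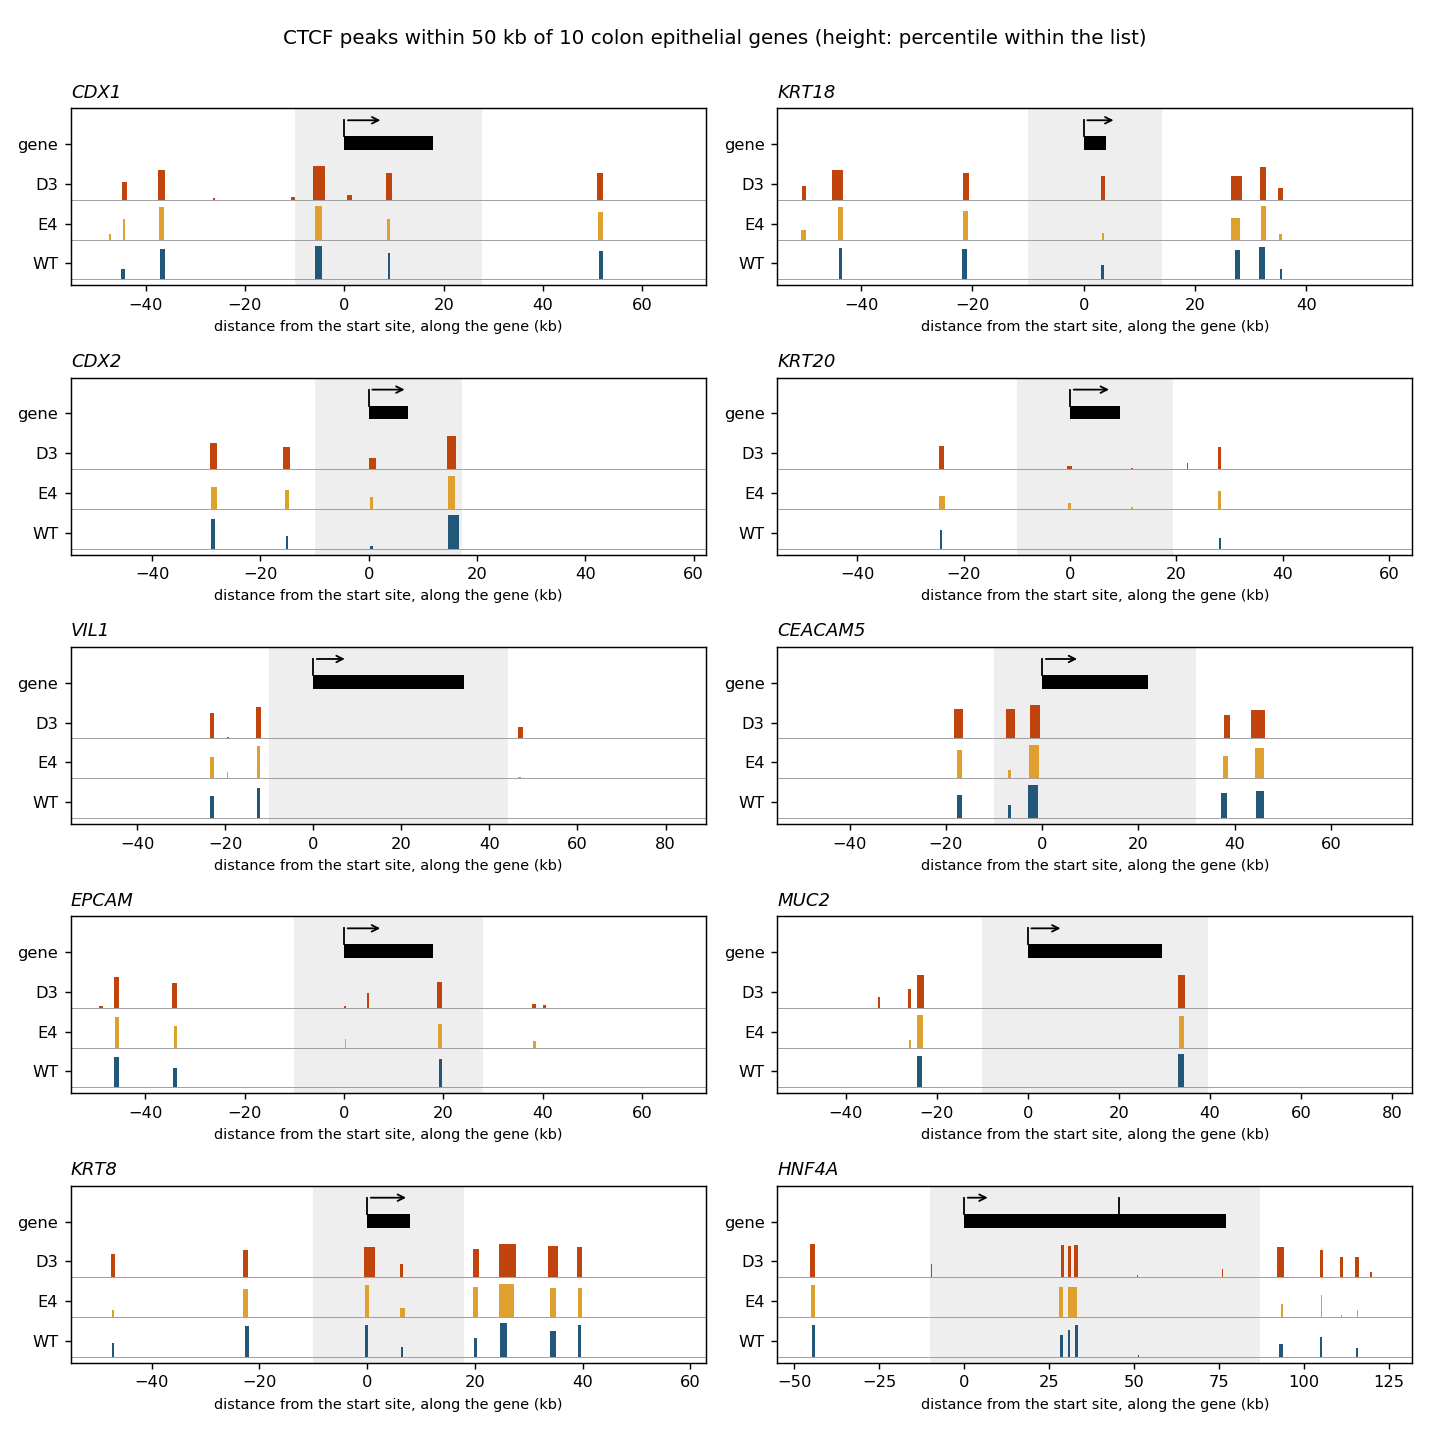
CTCF peaks of D3, E4 and WT within 50 kb of each gene. The x axis is the distance from the start site along the gene in kb, black boxes are gene bodies, grey is the 10 kb window, bar width is the peak width and bar height the percentile within the list; the second tick on HNF4A is its downstream start. VIL1 has no peak in the grey window, and KRT20 has WT peaks only outside it.

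EPCAM, an epithelial adhesion molecule, had 1 region called in all 3 libraries. It lay 0.77 kb beyond the 3′ end (chr2:47614937-47616084). Its folds were 8.19 in WT, 8.35 in D3 and 8.73 in E4, and its percentiles 83.1, 77.2 and 69.0. Among regions called in all 3 lists it ranked at 80.1 in WT, 59.8 in D3 and 62.6 in E4. At the EPCAM start itself both clones had a peak and WT had none (chr2:47596223-47596767). These peaks were weak, at the 0.0587th percentile of D3 (−log10 q 1.03) and the 24.4th of E4 (−log10 q 3.74), so that the D3 peak was among the weakest of its list. D3 alone had a further peak inside the gene, 4.57 kb downstream of the start, at its 43.5th percentile.

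CEACAM5, the carcinoembryonic antigen, had 2 regions upstream of its start, both called in all 3 libraries. The nearer one, chr19:42209600-42211969, ended 0.557 kb before the start and was at percentiles of 97.7 in WT, 98.9 in D3 and 98.3 in E4, with folds of 11.2, 18.0 and 18.8. Its peaks were 2014, 1985 and 2098 bp wide, in the same order. The farther one, chr19:42205057-42206788, lay 5.74 kb upstream and was at percentiles of 39.6 in WT, 87.9 in D3 and 25.2 in E4. Its rank among regions called in all 3 lists was 31.1 in WT, 78.6 in D3 and 15.1 in E4, the widest spread between libraries of the 13 regions. Its fold was 4.83 in WT, 11.8 in D3 and 4.64 in E4, each over its own background.

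The CEACAM5 promoter is shown because the strong region ends just short of it. The entry is chr19:41708376-41708675, plus strand, on GRCh38.p14, with capitals as above.
CEACAM5: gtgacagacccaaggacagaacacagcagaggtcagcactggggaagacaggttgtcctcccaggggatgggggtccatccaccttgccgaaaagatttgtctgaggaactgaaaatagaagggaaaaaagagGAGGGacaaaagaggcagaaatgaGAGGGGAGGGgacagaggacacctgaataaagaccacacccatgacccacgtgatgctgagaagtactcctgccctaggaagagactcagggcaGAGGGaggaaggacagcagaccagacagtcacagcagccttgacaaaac
It held 4 matches to the 5 letters, all on the minus strand, and none to the longer core. The peaks end upstream of these 300 bases, so the window does not hold the sequence under them.

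The paired keratins KRT8 and KRT18, which form the filaments of simple epithelia, are neighbours on chromosome 12 and read away from each other. All 3 of their regions were called in all 3 libraries. The region at the KRT8 start, chr12:53297377-53299487, was at percentiles of 93.6 in WT, 88.8 in D3 and 95.7 in E4, with folds of 10.5, 12.7 and 14.8. It was the strongest of the 6 regions that spanned a start or lay within 1 kb of one, after that of CEACAM5. A weaker region 6.07 kb into KRT8, chr12:53291823-53292794, had percentiles of 29.3 in WT, 39.9 in D3 and 27.1 in E4. The KRT18 region lay inside the gene, 3.10 kb downstream of its start (chr12:53345759-53346449). It was at percentiles of 41.6 in WT, 70.1 in D3 and 20.7 in E4, and among regions called in all 3 lists at 33.2, 47.6 and 11.4 in the same order.

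KRT20, a keratin of differentiated intestinal cells on chromosome 17, was the 1 gene of the 10 at which both clones had peaks and WT had none within 10 kb. One region spanned the start site (chr17:39041177-39042018). Its D3 peak was 842 bp wide with a fold of 3.34, at the 8.61st percentile, and its E4 peak was 661 bp wide with a fold of 4.35, at the 18.3rd percentile. The other lay 2.05 kb beyond the 3′ end (chr17:39029677-39030090), at the 2.25th percentile of D3 and the 4.19th of E4. All of these peaks were weak in their lists. At equal list length both regions kept their E4 peaks and lost those of D3, and among the 30000 strongest peaks of each list no library had a peak at either.

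The KRT20 promoter is shown because it lies under the peaks found in the clones. The entry is chr17:40885193-40885492, minus strand, on GRCh38.p14, with capitals as above.
KRT20: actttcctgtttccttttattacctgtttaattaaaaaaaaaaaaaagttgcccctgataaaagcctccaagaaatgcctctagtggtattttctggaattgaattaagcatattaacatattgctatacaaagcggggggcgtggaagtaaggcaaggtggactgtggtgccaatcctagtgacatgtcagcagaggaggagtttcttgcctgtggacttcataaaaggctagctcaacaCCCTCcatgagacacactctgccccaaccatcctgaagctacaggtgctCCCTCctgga
It held 2 matches to the 5 letters and none to the longer core. Of its bases 44.0% were G or C, against a median of 58.7% over all RefSeq promoters. Among the other promoters shown, CDX2 (50.3%) and CEACAM5 (53.3%) were also below that median, and MUC2 (62%) was above it.

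VIL1, the actin-bundling villin of the brush border, had no region within 10 kb in any library. The nearest region lay 11.8 kb upstream of its start, on the side of CTDSP1 (chr2:219270858-219272052). It was called in all 3 libraries, at percentiles of 87.7 in WT, 91.8 in D3 and 94.7 in E4.

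MUC2 had 1 region within 10 kb, and all 3 libraries called it. It lay 3.52 kb beyond the 3′ end used here, on the side of MUC5AC (chr11:1107935-1109471). Its percentiles were 98.0 in WT, 96.5 in D3 and 94.3 in E4, and its folds 12.2, 18.2 and 14.9. The MUC2 body used was 29.5 kb long and RefSeq gives 35.6 kb on GRCh38, so the place beyond the gene depends on the gene model. No library had a peak at the MUC2 start.

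The MUC2 promoter is shown as the counterpart, since it held the longer core and no peak. The entry is chr11:1074624-1074923, plus strand, on GRCh38.p14. Here the longest run of capitals is the core and the short ones are CCCTC.
MUC2: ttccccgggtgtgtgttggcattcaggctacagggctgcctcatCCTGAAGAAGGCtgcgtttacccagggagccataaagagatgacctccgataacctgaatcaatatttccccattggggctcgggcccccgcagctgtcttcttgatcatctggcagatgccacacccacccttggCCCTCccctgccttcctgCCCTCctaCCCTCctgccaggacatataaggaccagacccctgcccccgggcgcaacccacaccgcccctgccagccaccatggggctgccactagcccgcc
The core was matched once, on the plus strand with its first base at position -206 from the start, and it overlapped none of the 3 short matches. Of the 10 genes, 6 had a RefSeq promoter entry. CDX1, VIL1, EPCAM and KRT18 had none, and the entry of KRT8 belongs to a start farther upstream than the one used here.

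Across the set, 6 of the 23 regions spanned a start site or lay within 1 kb of one, at CDX1, CDX2, EPCAM, KRT8, KRT20 and CEACAM5, and 3 of these 6 were called in all 3 libraries. Another 9 regions lay inside a gene, 4 upstream and 4 beyond a 3′ end. The region of each gene that ranked highest, by its mean percentile over the lists, lay at the promoter only for CEACAM5 and KRT8 among the 8 genes with a region called in all 3 libraries. Of the 23 regions, 4 were above the 90th percentile of every list (17.4%, against 3.99% of all regions): those upstream of CDX1, beyond CDX2, at the CEACAM5 promoter and beyond MUC2. That share rests on few regions, no interval was computed for it, and the difference was not tested. The 10 regions that were not called in all 3 libraries were all below the 50th percentile of each list that held them, as were 90.4% of the 27740 such regions in the whole series.

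**Figure D3:**
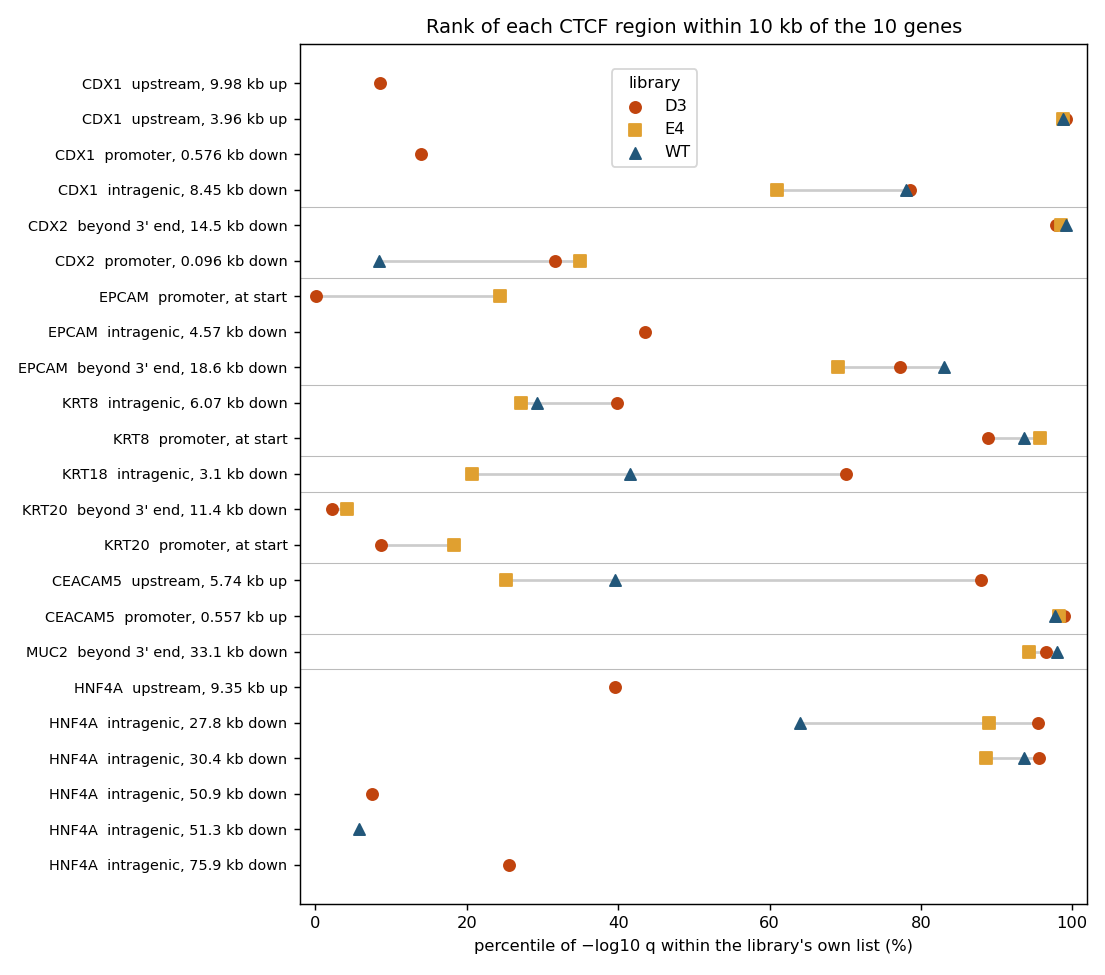
Percentile of −log10 q within the library's own list (x axis, %) for each of the 23 regions within 10 kb of the genes, with circles for D3, squares for E4 and triangles for WT; labels give place and distance from the start. Regions with 3 symbols reach the 99.2nd percentile, and regions with 1 or 2 symbols stay below the 50th.

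In the 13 regions called in all 3 libraries the median percentile was 88.8 in D3, 88.6 in E4 and 83.1 in WT. The same medians over all 32495 such regions were 71.5, 58.4 and 57.0. Median widths of the strongest peak in these 13 regions were 1245, 959 and 639 bp, against 1115, 818 and 681 bp. D3 had the widest peak in 8 of the 13 regions, E4 in 4 and WT in 1, the same order as the median widths of the whole lists. This count was not made over all 32495 regions, so it is not read as a trait of these genes. The 1 region with WT widest was that beyond CDX2, at 2065 bp in WT, 1618 bp in D3 and 1289 bp in E4. How often WT was widest elsewhere is not known here.

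**Figure D4:**
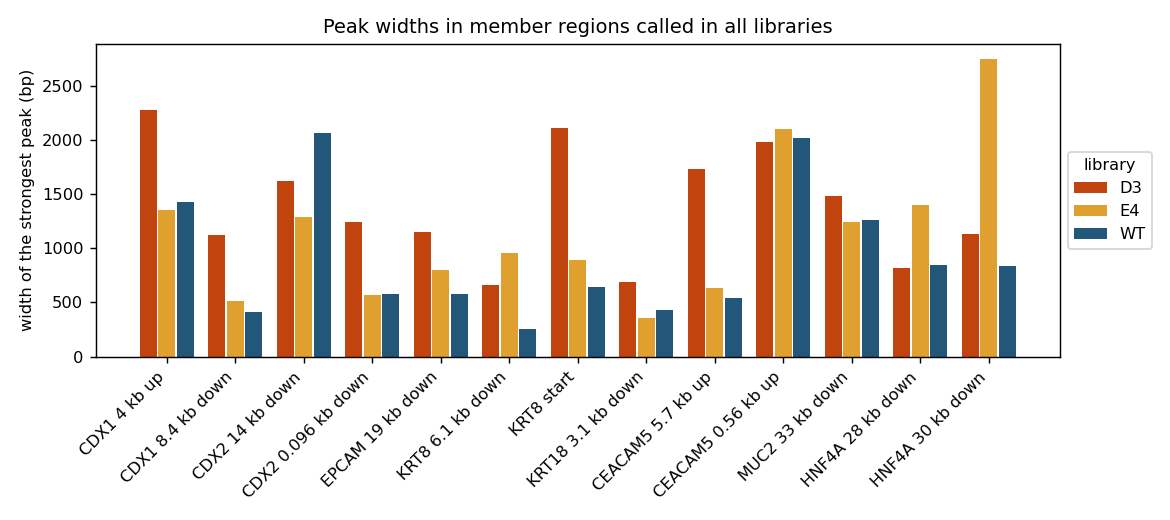
Width in bp (y axis, from 0) of the strongest peak of D3, E4 and WT in the 13 regions called in all 3 libraries, labelled by gene and distance from its start (up, upstream; down, downstream). At the CEACAM5 promoter the 3 widths lie between 1985 and 2098 bp, and at the KRT8 start D3 has 2111 bp against 639 bp in WT.

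With 50 kb around the genes the number of regions rose to 62, counting once those that the windows of KRT8 and KRT18 share. Of these, 40 were called in all 3 libraries (64.5%, interval 51.3 to 76.3), 12 in D3 only, 8 in D3 and E4 without WT, 1 in E4 only and 1 in WT only. The shares over all regions, in the same order, were 53.9%, 26.1%, 9.31%, 1.45% and 2.37%. Each clone overlapped 41 of the 42 WT peaks, and the missing one was again the weak HNF4A peak. All 10 genes then had a region called in every library. KRT8, KRT18, CDX2 and CEACAM5 had no region that any library lacked, with 8, 7, 4 and 5 regions.

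The wider window added strong regions at several genes. KRT8 gained chr12:53271321-53274341, 16.6 kb beyond its 3′ end, at percentiles of 99.0 in WT, 98.1 in D3 and 98.3 in E4. KRT18 gained chr12:53374049-53375408, 27.4 kb beyond its end, at 94.5 in WT, 96.6 in D3 and 98.5 in E4. Between these keratin genes a region called in all 3 libraries, chr12:53320856-53321986, stood at 89.7 in WT, 80.7 in D3 and 83.9 in E4. MUC2 gained chr11:1050532-1052038, 22.8 kb upstream, at 93.6 in WT, 98.0 in D3 and 95.7 in E4. With the 3′ end used here, strong regions thus lay on either side of MUC2, which depends on the gene model.

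HNF4A gained chr20:42939106-42940540, 43.9 kb upstream of its first start, at percentiles of 92.6 in WT, 98.6 in D3 and 93.5 in E4. EPCAM gained chr2:47549879-47551017, 45.3 kb upstream, at 90.2 in WT, 90.2 in D3 and 90.3 in E4. For KRT20 the highest-ranked region was chr17:39064981-39066175, 23.5 kb upstream, at 56.1 in WT, 68.0 in D3 and 38.1 in E4. In E4 another KRT20 region ranked above it, chr17:39013123-39013694, 18.4 kb beyond the 3′ end, at 31.2 in WT, 66.5 in D3 and 53.7 in E4. In each list the top KRT20 value was the lowest of the 10 genes. CDX1, CDX2 and CEACAM5 kept the same leading region as within 10 kb.

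The 8 regions of both clones that WT lacked within 50 kb were spread over VIL1, EPCAM, KRT20, MUC2 and HNF4A. Beside the 3 within 10 kb they included chr2:219264272-219264829 and chr2:219330357-219331443 at VIL1, chr11:1048555-1049328 at MUC2 and chr20:43095092-43095967 at HNF4A. The region upstream of MUC2 was at the 57.1st percentile of D3 and the 23.8th of E4. That at HNF4A was at the 59.9th and 2.45th. The E4 peaks of all 8 lay at or below the 24.4th percentile, and their median there was 18.2, against 15.3 over all 5605 such regions. In D3 the median was 10.4, against 34.5.

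CDX1 had the 1 region of E4 only, chr5:149499065-149499416, 46.9 kb upstream of its start at the 17.6th percentile of E4. The 12 regions of D3 only had a median percentile of 15.1 and a highest one of 43.5, the peak inside EPCAM. Beyond those within 10 kb, they included chr5:149519839-149520230 (CDX1), chr2:47547030-47547650 (EPCAM), chr17:39019266-39019535 (KRT20), chr11:1041892-1042404 (MUC2) and chr20:43104019-43104609 (HNF4A).

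A further list of 15 colon epithelial genes was set beside these, with 10 kb around each; both CEACAM6 regions were also in the 50 kb window of CEACAM5. It held 34 regions, of which 23 were called in all 3 libraries (67.6%, interval 49.5 to 82.6), 9 in D3 only, 2 in D3 and E4 without WT, and none in WT only, beside 53.9%, 26.1%, 9.31% and 2.37% of all regions. GUCY2C, the guanylin receptor, and MUC13, a membrane mucin, had the most regions, with 5 each. Their bodies were 84 kb and 29.3 kb long, and counts were not scaled to length. FABP1, a fatty acid binding protein of enterocytes, SLC26A3, a chloride exchanger, and ATOH1, the secretory lineage factor, had none. Regions that a library lacked were found at 7 genes: KRT19, GUCY2C, TFF3, LGALS4, MUC13, CDH1 and ELF3. At KRT19, another keratin gene of chromosome 17, WT had no peak, D3 had 2 and E4 had 1, at its 2.66th percentile. Of the 34 regions 2, at GUCY2C and GPA33, were above the 90th percentile of every list (5.88%), and 3 lay within 1 kb of a start, at CEACAM6, CDH1 and ELF3.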

How the data were processed

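CTCF was mapped in 3 libraries (WT, D3, E4). Libraries labelled as having no antibody, 3 in number, were not used here (for that of WT the antibody field says so and the title does not). Per the submitters' processing notes, the build was hg19 and the tools included MACS2 2.2.7.1, bedtools 2.29.2, Picard 2.23.1 and CASAVA 1.8.2. The aligner and the peak call settings are not given in the sources used here. One broad peak list per library was deposited by the authors. The fold enrichment (a ratio over the caller's background), the −log10 p and −log10 q, and a score of about 10 times the −log10 q are the authors' deposited values. The −log10 p and the score were not used. The fold and −log10 q serve only within a list.

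Peaks were merged and ranked with Python 3.11.15, pandas 2.3.3 and numpy 2.4.6, and exact (Clopper-Pearson) 95% intervals came from scipy 1.17.1; the merging was tested on simulated lists. No p-values were computed, with 1 library per population. Where a list had several peaks in a region, the one with the highest −log10 q was taken. A promoter region had any base within 1 kb of a start. Gene bodies were written from general knowledge of hg19, with no exon or intron assignment, so distances to genes are approximate. All 10 genes lay on the same chromosome in a RefSeq table of GRCh38.p14, and 7 had a length within 5% of it (CDX2, KRT8 and MUC2 did not, and RefSeq counts longer KRT8 transcripts). RefSeq coordinates were used only for the promoter sequences. Named regions were all those within 10 kb, and within 50 kb the highest-ranked per gene (mean percentile over the lists, among regions called in every library) and those not called in every library. Of these last, and of the further list of colon epithelial genes, some items are not reported here. Alternatives were other windows, −log10 q of 5 or more, equal list length (38645 peaks), 50% coverage, a distance of 1 kb, another promoter width and other rankings. The members, lists and tests were chosen with earlier results of these data known.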

Additional observations from a re-analysis of the deposited data

Results flagged for a closer look

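HNF4A was the 1 gene of the 10 with more regions in one clone and fewer in the other than in WT. D3 had 5 regions within 10 kb, E4 had 2 and WT had 3, so that D3 and E4 differed by 3 regions. With 1 library per population this difference was not tested. With lists cut to equal length the counts were 3, 2 and 3, and among the 30000 strongest peaks of each list they were 2, 2 and 2.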

How the results depend on the processing

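The 3 regions of both clones without a WT peak became 0 at equal list length and 0 when only peaks with −log10 q from 5 upward were used. They were also 0 among the 30000 strongest peaks per list. These settings removed D3 or E4 peaks and could add no WT peak. At equal list length the 3 regions lost their D3 peaks and kept their E4 peaks. The lowest −log10 q kept there was 5.12 in D3, 1.28 in E4 and 1.02 in WT. With 50 kb around the genes the counts were 41 and 41 WT peaks overlapped by D3 and E4, 40 regions called in all 3 lists and 8 in both clones without WT, as a wider window must give more. With 50% coverage of the merged region required, 8 regions counted as called in all 3 lists, and narrower peaks lose such calls by construction. Promoter regions numbered 3 under that limit on −log10 q. The median percentile over the regions, 80.5 in WT, 56.8 in D3 and 65.0 in E4, was 82.8, 57.3 and 59.5 when ranked by fold, and 80.1, 80.2 and 86.2 among regions called in all 3 lists, which leaves out the weak regions. The other 25 of 40 alternatives stayed within 1.5 times the count, and none reversed. A further 48 alternatives re-ranked the strongest 10 kb region of each gene. Of these, 44 moved, 4 stayed and none reversed. Some moves were small, as for CDX1 in D3, from 99.2 to 99.4 by fold. Others were larger, as for KRT18 in D3, from 70.1 to 47.6 among regions called in all 3 lists. The KRT8 body taken up to KRT18 and the lists of 30000 peaks were chosen after seeing the data. No paired analysis was possible because every group has a single library, which also means that none could be left out. Without known depth, an uncalled weak peak cannot be told from an absent one.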
